A study of Sus scrofa domesticus with 11 samples.

Results

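Genes that remodel lipoproteins were followed in liver RNA of Yorkshire piglets that were born preterm and fed by vein (parenteral nutrition). The list held 8 gene symbols, of which 7 were found by name among the 22029 genes of the deposited table: the lipases LIPG, LIPC, LPL and LIPA, the transfer protein PLTP, the HDL receptor SCARB1 and the sterol exporter ABCA1. LCAT, the eighth, was not analysed here. The symbols were chosen by role, and where a symbol had several identifiers the one with the highest summed count was to be used. LIPG gave the list its name because it had already passed the test in an earlier look at the same libraries, so its difference is given below as a description and supports nothing else.

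Liver was taken on day of life 15. The 5 SEFA-6179 libraries came from piglets given 48 mg/kg of the compound SEFA-6179, a code name. The 6 MCT libraries came from piglets given the vehicle MCT (medium-chain triglyceride, from knowledge of the study) in the same volume, 3 ml/kg. Both groups shared the preterm birth and the parenteral nutrition. The sources used here give no sex, litter or sequencing batch. The design text speaks of animals, and nothing else says that each library is a separate piglet. P-values of group differences therefore weigh each difference against the spread between these libraries.

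Lipoproteins carry triglyceride and cholesterol in blood, and the enzymes studied here reshape them after secretion. LIPC (hepatic lipase), LIPG (endothelial lipase) and LPL (lipoprotein lipase) belong to one family of secreted lipases that act at the vessel wall. LPL acts mostly on the triglyceride of chylomicrons and VLDL, LIPC on remnants and HDL, and LIPG mostly on the phospholipid of HDL. LIPA works inside the cell, in lysosomes, on cholesteryl esters and triglyceride that have been taken up. PLTP moves phospholipid between particles, ABCA1 loads cholesterol and phospholipid onto apolipoprotein A-I to start an HDL particle, and SCARB1 takes cholesteryl ester from HDL into hepatocytes.

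Libraries held 16821201 to 19215097 counts in the SEFA-6179 group and 15974977 to 23416071 in the MCT group. The tissue carried hepatocyte markers at high level in every library, with 7 of 7 listed markers found and a summed level of 60617 to 163133 CPM (counts scaled to the library total, then between libraries by the trimmed mean of M values) in SEFA-6179 and 51824 to 157108 CPM in MCT livers. On the first principal component of all tested genes MCT replicate 5 was far from the other libraries, and SEFA-6179 replicate 4 had the lowest summed level of Kupffer cell and macrophage markers, so results below are also given without them where that matters.

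Of the 7 genes, LIPG was the only one whose difference between groups passed the threshold: it was 3.23-fold higher with SEFA-6179. LIPC, LIPA, PLTP, SCARB1 and ABCA1 lay within 0.15 of 0 on the log2 scale, and LPL, which was barely detected, had a log2 fold change of -2.06 and did not pass. In the quasi-likelihood test of edgeR, Benjamini-Hochberg adjusted over 13671 tested genes, 1 of 7 members passed at an adjusted p below 0.05, against 0.219% of all tested genes in either direction and 0.117% higher with SEFA-6179. As LIPG leads the list because of that call in an earlier look at these libraries, the count says nothing about the group. The median log2 fold change was 0.01 over the 7 members and -0.0015 over all tested genes, with 4 members above 0 and 3 below. All 7 passed the filter on low counts.

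**Figure D1:**
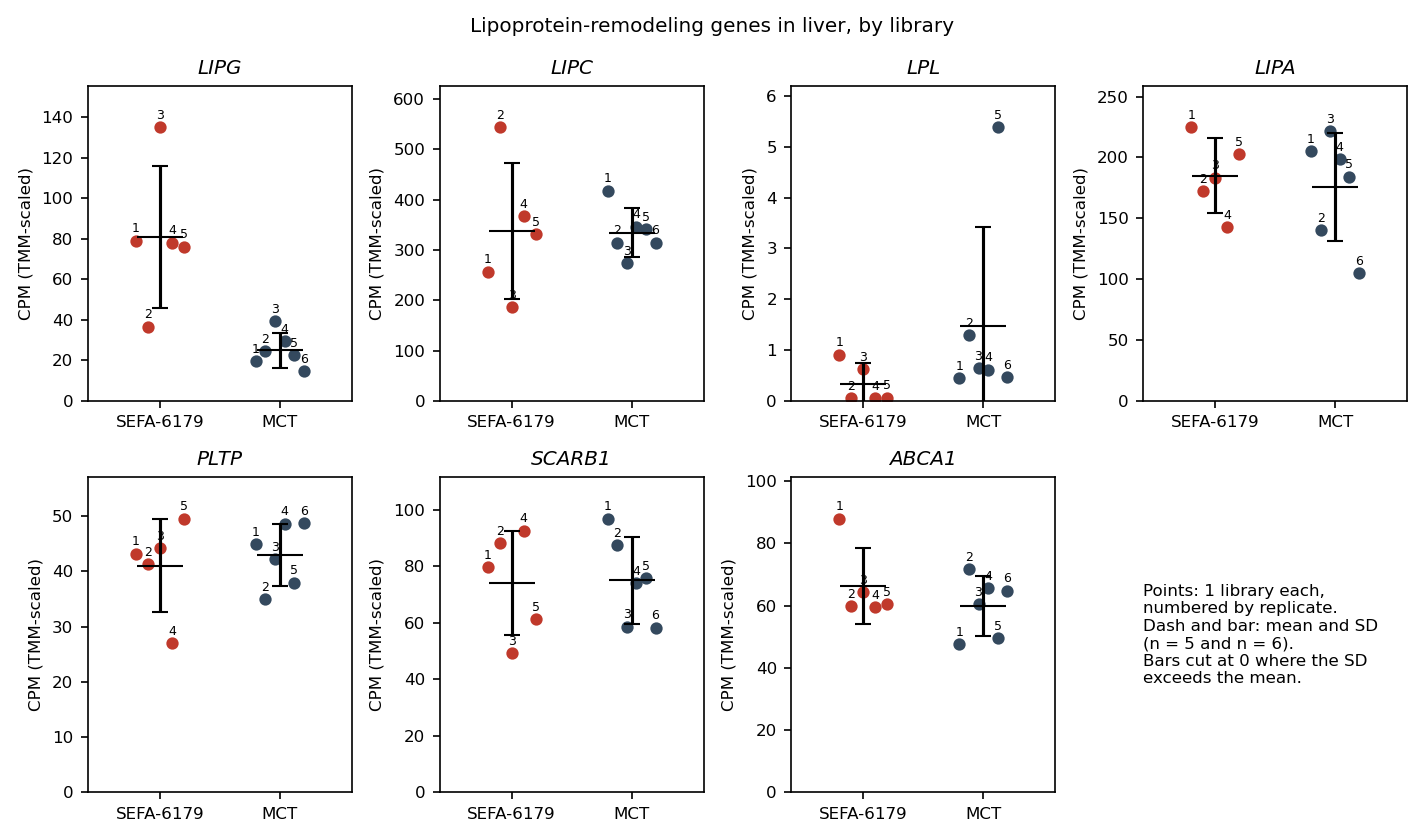
TMM-scaled CPM of the 7 genes in each library, with SEFA-6179 (n = 5) on the left and MCT (n = 6) on the right of each panel. Points are libraries numbered by replicate, and dash and bar are mean and SD. In LIPG, 4 of 5 SEFA-6179 libraries lie above every MCT library, and in the other panels the groups overlap.

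LIPG (ENSSSCG00000004509, chromosome 1 from 99081938 to 99110876, plus strand, in the coordinates of the deposited table, for which the sources used here name no build) had 79.2, 36.7, 135, 78.2 and 76.3 CPM in SEFA-6179 replicates 1 to 5, against 19.7, 24.6, 39.5, 29.4, 22.4 and 14.8 CPM in MCT replicates 1 to 6. SEFA-6179 replicate 2 fell inside the MCT range, below MCT replicate 3, and the other 4 exceeded every MCT library. The means were 81.1 ± 35.1 CPM with SEFA-6179 (SD, n = 5) and 25.1 ± 8.58 CPM with MCT (SD, n = 6). The log2 fold change was 1.69 ± 0.30 (SE), with a 95% interval of 1.05 to 2.34, and its edgeR adjusted p was 0.0398. In the authors' deposited table, made from the same libraries, the log2 fold change of LIPG is 1.70 and its adjusted p is 1.73e-05. Their comparison calls more genes, 1.16% at an adjusted p below 0.05 against 0.219% by edgeR, so the 2 adjusted p-values are not alike.

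The size of the LIPG difference was steadier than its call. With each library left out in turn the log2 fold change ran from 1.43 to 1.88, the lowest without SEFA-6179 replicate 3. The call held in 3 of these 11 tests, those without SEFA-6179 replicate 2, SEFA-6179 replicate 3 or MCT replicate 3, and was lost in the other 8, with adjusted p of at most 0.124 by edgeR. It was also lost without SEFA-6179 replicate 4 and MCT replicate 5 together (log2 fold change 1.68, adjusted p = 0.153) and with the level of EIF1AY, a Y-linked gene, as a covariate (log2 fold change 1.71, adjusted p = 0.0950).

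**Figure D2:**
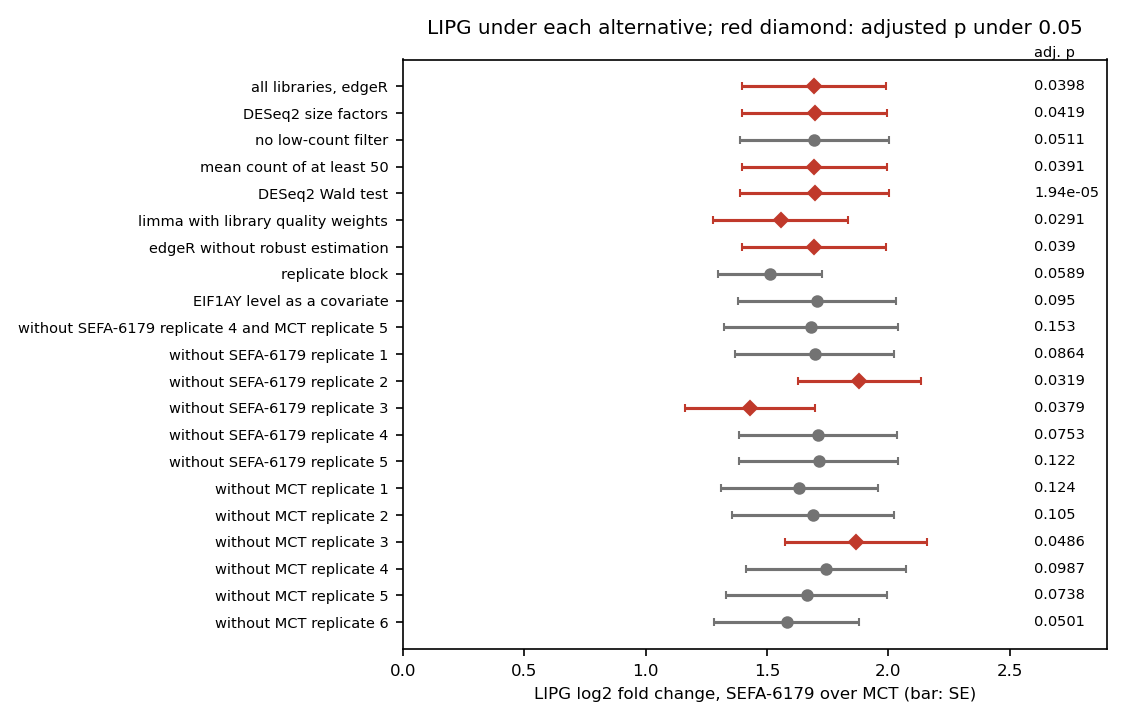
LIPG log2 fold change of SEFA-6179 over MCT, with its SE as bar, with all libraries and under each alternative, and the adjusted p printed at the right. Red diamonds mark an adjusted p below 0.05. Every estimate lies between 1.43 and 1.88, while 12 of 20 alternatives miss the threshold.

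LIPC, the liver's own secreted lipase, had the highest length-scaled level of the list. It had 257, 544, 187, 368 and 332 CPM in SEFA-6179 replicates 1 to 5, against 418, 314, 274, 346, 341 and 314 CPM in MCT replicates 1 to 6. The SEFA-6179 libraries spread on both sides of the MCT range, 1 above it and 2 below, with a coefficient of variation of 40.0% against 14.4% in MCT. That difference in spread was not tested. The means were 337 ± 135 CPM in SEFA-6179 livers and 335 ± 48.2 CPM in MCT livers (SD, n = 5 and 6), and the 95% interval of the log2 fold change ran from -0.49 to 0.51, which covers fold changes from 0.714 to 1.42 (edgeR adjusted p = 0.993). The sign of this near-zero estimate turned under 9 of 20 alternatives.

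LPL was near the lower limit of detection. Its raw counts were 16, 1, 12, 1 and 1 in SEFA-6179 replicates 1 to 5, against 9, 30, 13, 13, 96 and 8 in MCT replicates 1 to 6. In 3 SEFA-6179 libraries a single read was counted, while SEFA-6179 replicates 1 and 3 lay within the MCT range. MCT replicate 5 held 96 of the 169 MCT reads. The log2 fold change was -2.06 ± 0.88 (SE, edgeR adjusted p = 0.408) with all libraries and -0.998 without MCT replicate 5 (adjusted p = 0.621). In a piece of tissue, fewer cells that make a transcript and less of it per cell cannot be told apart.

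Of the 3 related secreted lipases, LIPC thus made up most of the transcript in every liver. LIPG accounted for 14.6%, 3.61%, 28.6%, 10.6% and 11.3% of their summed FPKM (fragments scaled to gene length and depth, as deposited) in SEFA-6179 replicates 1 to 5, against 2.55%, 4.15%, 7.40%, 4.50%, 3.50% and 2.54% in MCT replicates 1 to 6. The mean share was 13.7 ± 9.24% with SEFA-6179 and 4.11 ± 1.80% with MCT (SD, n = 5 and 6), and SEFA-6179 replicate 2 again lay within the MCT range. LPL took at most 0.134% with SEFA-6179 and 0.671% with MCT. The ratio of LIPC to LIPG was 2.49 in SEFA-6179 replicate 3 and 26.7 in SEFA-6179 replicate 2, against 12.5 to 38.3 over the MCT libraries. This ratio within a library does not depend on how libraries were scaled to each other. It does hold the LIPG difference for which LIPG leads the list.

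LIPA, the lysosomal acid lipase, had 225, 172, 183, 143 and 203 CPM in SEFA-6179 replicates 1 to 5, against 205, 140.4, 222, 199, 184 and 105 CPM in MCT replicates 1 to 6. The groups overlapped over nearly their whole ranges, with means of 185 ± 31.1 CPM in SEFA-6179 livers and 176 ± 44.4 CPM in MCT livers, and the log2 fold change was 0.07 ± 0.20 (SE, edgeR adjusted p = 0.923). The deposited LIPA interval, on the minus strand of chromosome 14, contains the interferon-induced genes IFIT1 and IFIT2 on the plus strand. The sources used here do not say whether counting used strand, so reads of these genes cannot be told apart where they overlap. IFIT1 reached 2530 CPM in MCT replicate 5, and the other MCT libraries held 49.0 to 319 CPM, while LIPA in MCT replicate 5, at 184 CPM, lay inside the range of the others.

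PLTP had 43.2, 41.3, 44.2, 26.9 and 49.5 CPM in SEFA-6179 replicates 1 to 5, against 45.0, 35.0, 42.2, 48.6, 37.9 and 48.8 CPM in MCT replicates 1 to 6. SEFA-6179 replicate 4 was the lowest of all 11 libraries, and the other SEFA-6179 values lay in or just above the MCT range. The log2 fold change was -0.06 ± 0.16 (SE, edgeR adjusted p = 0.916), and it was 0.06 without SEFA-6179 replicate 4. PLTP shares 187 bases with CTSA, which lies on the opposite strand.

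SCARB1 had 79.6, 88.2, 49.2, 92.5 and 61.4 CPM in SEFA-6179 replicates 1 to 5, against 96.8, 87.3, 58.6, 73.9, 75.7 and 58.2 CPM in MCT replicates 1 to 6. Its groups overlapped, and the log2 fold change was -0.02 ± 0.19 (SE, edgeR adjusted p = 0.986). ABCA1 had 88.0, 59.8, 64.2, 59.5 and 60.4 CPM in SEFA-6179 replicates 1 to 5, against 47.6, 71.7, 60.4, 65.5, 49.5 and 64.8 CPM in MCT replicates 1 to 6. SEFA-6179 replicate 1 was alone above the MCT range, and the other 4 SEFA-6179 libraries lay close together inside it. The log2 fold change of ABCA1 was 0.15 ± 0.15 (SE, edgeR adjusted p = 0.776), and 0.02 without SEFA-6179 replicate 1.

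For these 5 well-counted genes the data limit how large a difference could have been missed. The 95% intervals of the fold change, SEFA-6179 over MCT, ran from 0.785 to 1.41 for LIPA, from 0.756 to 1.21 for PLTP, from 0.746 to 1.31 for SCARB1 and from 0.884 to 1.39 for ABCA1, beside the interval of LIPC given above. None of these intervals reaches the lower bound of 2.07-fold for LIPG. The difference between LIPG and the other members was not itself tested, as LIPG leads the list because of its own difference. A missed threshold does not show that a gene was unaffected.

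Compared per length, as deposited FPKM over all 11 libraries, the order of levels was LIPC (150.1 ± 41.0), LIPA (23.3 ± 4.86), PLTP (21.4 ± 3.44), SCARB1 (13.1 ± 2.82), LIPG (12.5 ± 9.22), ABCA1 (5.98 ± 1.02) and LPL (0.191 ± 0.304), each as mean and SD. LIPC lay above LIPA, and ABCA1 above LPL, in 11 of 11 libraries. LIPA and PLTP differed by less than their SD, though LIPA was higher in 10 libraries, SCARB1 lay above LIPG in 7 libraries, and those neighbours differed by less than their SD too. The place of LIPG depended on the group: its FPKM was 20.1 ± 8.71 with SEFA-6179, near the 20.9 ± 4.32 of PLTP, against 6.22 ± 2.10 with MCT, near the 5.70 ± 0.876 of ABCA1. Among all tested genes 98.0% had a lower mean FPKM than LIPC, 81.6% a lower one than LIPG and 5.42% a lower one than LPL.

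**Figure D3:**
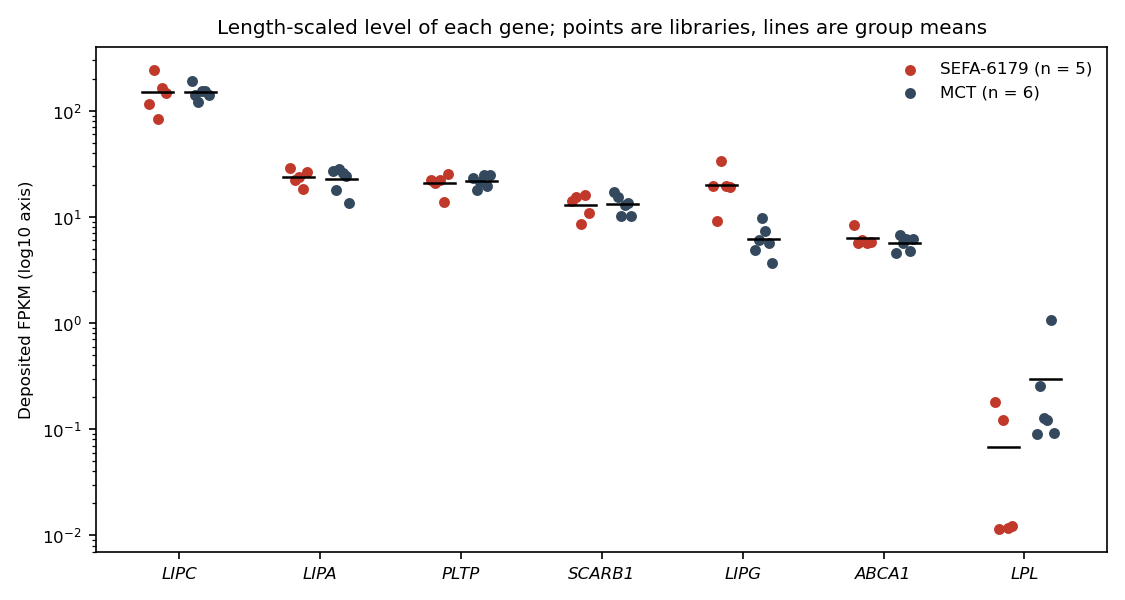
Deposited FPKM of each gene on a log10 axis, ordered by the mean over all 11 libraries. Points are libraries, SEFA-6179 left and MCT right, and lines are group means. LIPC averages 150.1 FPKM and LPL 0.191 FPKM, and LIPG is the gene whose group means are furthest apart among those above 1 FPKM.

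The wider pathway was described with a list of 35 genes, of which 30 were found and tested. By edgeR 0 of 30 passed the adjusted threshold (4 at an unadjusted p below 0.05, 3 of them higher with SEFA-6179, where 10.8% of all tested genes had such a p), and DESeq2 passed 1, APOA2, where it called 2.06% of the genes it gave an adjusted p. As many lay above 0 as below, 15 each, with a median log2 fold change of -0.02, against -0.0015 over all tested genes.

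Of the 6 apolipoprotein genes tested, 5 lay above 0 (median log2 fold change 0.17), as did 6809 of all 13671 tested genes. APOA2, an apolipoprotein of HDL, was nearest to the threshold of the related genes. It had 813, 1605, 672, 658 and 1461 CPM in SEFA-6179 replicates 1 to 5, against 652, 328, 408, 513, 357 and 545 CPM in MCT replicates 1 to 6, so the groups did not overlap, as in 1.49% of all tested genes. The gap between the lowest SEFA-6179 library and the highest MCT library was only 658 against 652 CPM. Its log2 fold change was 1.16 ± 0.28 (SE), with an adjusted p of 0.123 by edgeR and 0.00433 by DESeq2. Over the alternatives the adjusted p ran from 0.00433 to 0.315. APOE, which directs remnants to their receptors, was at 22069 ± 2426 CPM in SEFA-6179 livers and 15174 ± 3657 CPM in MCT livers (edgeR adjusted p = 0.356), while APOA1, the main HDL protein, had a log2 fold change of -0.13.

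The inhibitors and the enzymes that cleave them showed no call. ANGPTL4, an inhibitor of LPL, was at 142 ± 24.5 CPM in SEFA-6179 livers and 153 ± 39.8 CPM in MCT livers. ANGPTL8, a secreted regulator of LPL, had 2.12 ± 1.49 CPM in SEFA-6179 livers and 3.95 ± 3.56 CPM in MCT livers. PCSK5, a proprotein convertase, was at 4.66 ± 3.45 CPM in SEFA-6179 livers and 2.27 ± 0.687 CPM in MCT livers (edgeR adjusted p = 0.356). It reached 10.5 CPM in SEFA-6179 replicate 3, which also had the highest LIPG. Without that library the log2 fold change of PCSK5 was 0.50 (edgeR adjusted p = 0.670), against 1.04 with all libraries. A relation between PCSK5 and LIPG was not tested. Genes of lipase folding and anchoring had log2 fold changes from -0.42 (SDC1) to 0.27 (SEL1L), and LMF1, which lipases of this family need for folding, had a log2 fold change of -0.07.

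Of 6 genes of sterol efflux and its regulators, 4 lay below 0 (median log2 fold change -0.16), as did 6862 of all 13671 tested genes. ABCG5, which with ABCG8 exports sterol into bile, was at 37.3 ± 18.8 CPM in SEFA-6179 livers and 63.9 ± 29.9 CPM in MCT livers (edgeR adjusted p = 0.511). NR1H3, which encodes the sterol sensor LXR-alpha, had a log2 fold change of -0.05. Of 6 genes of cholesterol handling inside the cell, 5 lay below 0, with a median log2 fold change of only -0.07 over the 6. Among them SOAT2, which esterifies cholesterol in hepatocytes, was at 40.7 ± 10.6 CPM in SEFA-6179 livers and 65.3 ± 23.2 CPM in MCT livers (edgeR adjusted p = 0.335). PDZK1, the scaffold that holds SCARB1 at the hepatocyte surface, had a log2 fold change of 0.08. VLDLR was at 9.01 ± 1.19 CPM in SEFA-6179 livers and 7.16 ± 0.894 CPM in MCT livers (edgeR adjusted p = 0.479).

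**Figure D4:**
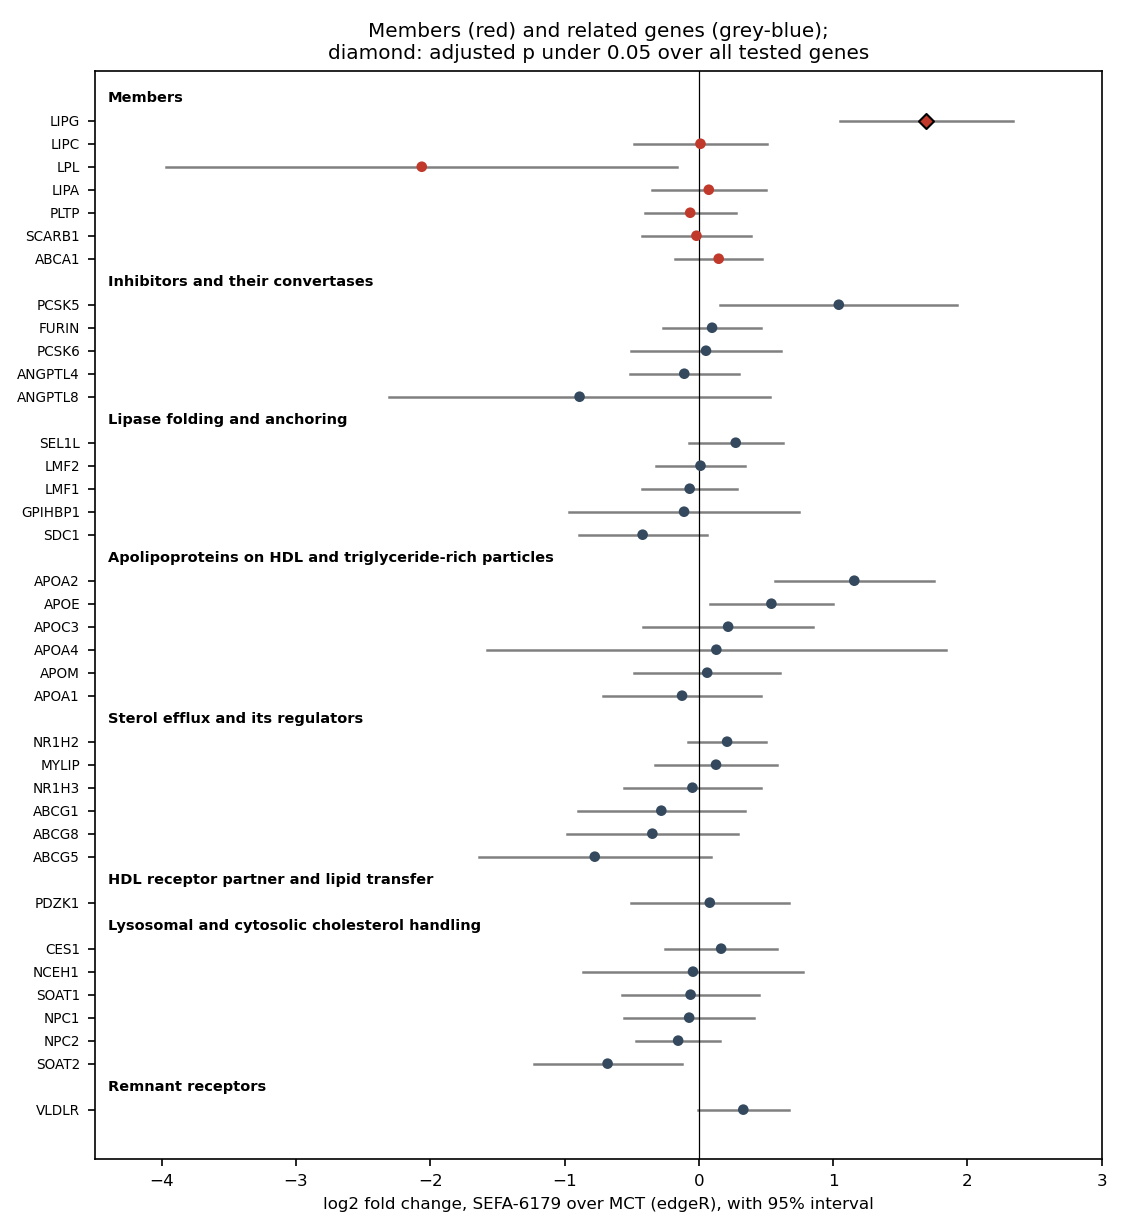
log2 fold change of SEFA-6179 over MCT with its 95% interval for the 7 members (red) and 30 related genes (grey-blue), grouped by role. The diamond marks an adjusted p below 0.05 over all tested genes. LIPG at 1.69 is the single diamond, and APOA2 at 1.16 is the highest related gene.

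Genes whose level followed that of LIPG most closely over the 11 libraries were taken from 9911 other named genes whose normalized count averaged at least 50, by Pearson's r of log2 CPM. They were TMEM19 (r = 0.94), CRP (0.91), PID1 (0.89), STAT3 (0.89) and CETN2 (0.89). The libraries share the group difference, and the genes were picked as the highest of many, so r is a description only. CRP, an acute phase protein, had 1204, 430, 4707, 1019 and 1179 CPM in SEFA-6179 replicates 1 to 5, against 168, 752, 959, 296, 362 and 146 CPM in MCT replicates 1 to 6. Like LIPG it was highest in SEFA-6179 replicate 3, lowest of its group in SEFA-6179 replicate 2 and highest among MCT in replicate 3 (edgeR adjusted p = 0.300 for CRP). After each group's mean was subtracted, the genes most like LIPG were TNFRSF21 (r = 0.97), WFS1 (0.94), PTPN1 (0.92), DENND2D (0.92) and RAB20 (0.91).

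Between livers of the same group, LIPC followed the hepatocyte markers. This measure was not used to choose the members. With group means subtracted, Pearson's r between log2 CPM of LIPC and the mean log2 CPM of the 7 hepatocyte markers over 11 libraries was 0.89 (permutation within groups, two-sided, p = 0.00080, Benjamini-Hochberg adjusted over 56 relations p = 0.0448). Spearman's rho was 0.88 (permutation p = 0.00392, adjusted p = 0.220), so the relation passed by one measure and not by the other. Without the 2 libraries farthest in LIPC, SEFA-6179 replicates 2 and 3, r was 0.84.

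LIPG ran the other way against the hepatocyte markers, with r = -0.80 and rho = -0.76 over the 11 libraries, and did not pass (permutation p = 0.00408 and 0.0111, adjusted p = 0.114 and 0.222). Without SEFA-6179 replicates 2 and 3, r was -0.61. Between LIPG and LIPC r was -0.79 and rho -0.64 (permutation p = 0.0149 and 0.0519, adjusted p = 0.188 and 0.300), and r was -0.37 without the same libraries, so that relation rested on them. Of 21 pairs of members 0 passed after adjustment, with 2 at an unadjusted permutation p below 0.05 by Pearson's r, and of 35 relations between a member and a marker list 1 passed.

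**Figure D5:**
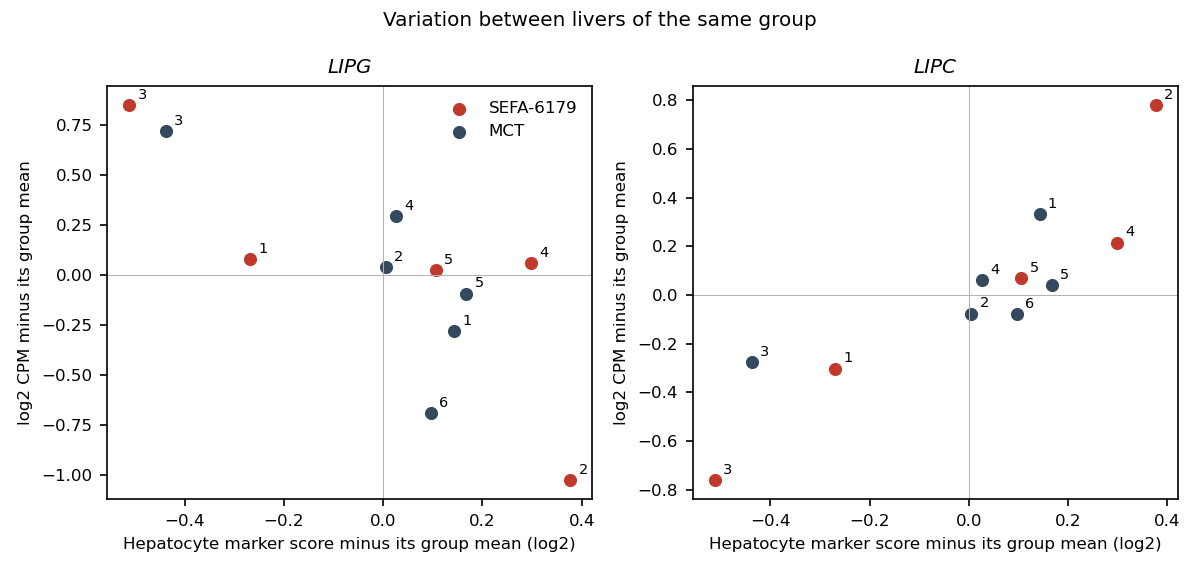
log2 CPM of LIPG (left) and LIPC (right) minus the group mean, against the hepatocyte marker score minus its group mean. Points are libraries numbered by replicate. LIPC increases with the score (r = 0.89) and LIPG decreases (r = -0.80, not past the adjusted threshold), with SEFA-6179 replicates 2 and 3 at the ends.

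Markers of other liver cells were read beside these genes. Of the liver endothelial markers 10 of 12 were found, all 10 with a log2 fold change above 0 (median 0.38, 0 past the threshold by edgeR), and their summed level was 523 to 986 CPM in SEFA-6179 livers and 426 to 883 CPM in MCT livers. Of the Kupffer cell and macrophage markers 9 of 11 were found, 8 above 0, with 62.6 to 2350 CPM in SEFA-6179 livers and 212 to 1361 CPM in MCT livers. Of the bile duct markers 6 of 7 were found, all 6 below 0 (median -1.13, 0 past the threshold by edgeR), with 34.9 to 71.9 CPM in SEFA-6179 livers and 44.4 to 133 CPM in MCT livers. Of the stellate cell markers 8 of 8 were found, 6 below 0, with 459 to 773 CPM in SEFA-6179 livers and 620 to 883 CPM in MCT livers. No marker found was at 0 in any library. The summed ranges overlapped between the groups. Of the single markers found, 1 did not overlap, where the groups do not overlap in 1.49% of all tested genes. The bile duct marker CD24 was at 2.28 to 5.05 CPM in SEFA-6179 livers and 5.61 to 11.6 CPM in MCT livers, with no overlap (log2 fold change -1.31, edgeR adjusted p = 0.0539). EPCAM, another bile duct marker, lay below all MCT libraries in 4 of 5 SEFA-6179 libraries (log2 fold change -1.26, edgeR adjusted p = 0.180). The stellate cell marker COL3A1 also lay below all MCT libraries in 4 of 5 (log2 fold change -0.41, edgeR adjusted p = 0.355). RGS5 of the same list went the other way, above all MCT libraries in 3 of 5 (log2 fold change 0.92, edgeR adjusted p = 0.341). The liver endothelial marker CDH5 lay above all MCT libraries in 4 of 5 (log2 fold change 0.36, edgeR adjusted p = 0.426), as did the hepatocyte marker HNF4A (log2 fold change 0.32, edgeR adjusted p = 0.601). In SEFA-6179 replicate 2, at 138 CPM, HNF4A lay below all MCT libraries. Of the 7 hepatocyte markers 6 had a log2 fold change above 0, and TF went the other way (log2 fold change -0.37, edgeR adjusted p = 0.716). These markers were named after their values were seen. The part of these cell types in the LIPG difference was not tested. Within groups, Pearson's r of LIPG was -0.33 with the liver endothelial markers and 0.25 with the macrophage markers. It was -0.43 with the stellate cell markers and 0.51 with the bile duct markers. None of these relations passed (permutation, adjusted p = 0.532 to 0.818). SEFA-6179 replicate 4, with the lowest PLTP, had the lowest macrophage sum, at 62.6 CPM. With group means subtracted, PLTP and the mean log2 CPM of the macrophage markers had r = 0.79 and rho = 0.59 over 11 libraries. This relation did not pass (permutation p = 0.0496 and 0.0674, adjusted p = 0.349 and 0.300). Without SEFA-6179 replicate 4 and MCT replicate 2, the libraries farthest in PLTP, its r was 0.60. PLTP and the liver endothelial markers had r = 0.76 and rho = 0.61. That relation did not pass either (permutation p = 0.0167 and 0.0641, adjusted p = 0.188 and 0.300), and its r was 0.24 without the same libraries.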

How the data were processed

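Liver RNA libraries were compared between SEFA-6179 (5) and MCT (6). The deposited table holds raw read counts per gene, per the file headers. It also holds a normalized signal, which the authors made by dividing the count by 1 size factor per library, and FPKM, per the file headers. For their own comparison the authors deposited the log2 fold change with its p-value, raw and adjusted. DESeq2 1.20.0, featureCounts 1.5.0-p3, StringTie 1.3.3b and HISAT2 2.0.5 appear in the submitters' processing notes, with no step named for each. The sources used here give neither genome build nor strand setting. No gene sequences were used here.

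The test of the counts used edgeR 4.0.16 (R 4.3.3): filterByExpr with a minimum count of 10, trimmed mean of M values (TMM) scaling, and the robust quasi-likelihood test, two-sided, with Benjamini-Hochberg adjustment over 13671 genes and a threshold of 0.05. Standard errors and 95% intervals follow from the F statistic and its degrees of freedom. DESeq2 1.42.0 and limma 3.58.1 were alternatives. All were tested on simulated data first. Correlations used log2 CPM (prior count 2) and 100000 permutations within groups (Python 3.11.15). Intervals cover the spread between libraries only.

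The members, the related genes, the marker lists and the alternatives were chosen with earlier results of these data known. Of the related genes, the 6 with the smallest p were to be named, and genes named beside them (APOA1, ANGPTL4, ANGPTL8, LMF1, SDC1, SEL1L, NR1H3 and PDZK1) were chosen for their role after their values were seen. Some genes of the related list are not reported here. The table names 14022 genes, and symbols came from a reference list for 779 more. No pair of libraries of a group agreed within sampling noise (lowest chi-square per degree of freedom 45.7).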

Additional observations from a re-analysis of the deposited data

Results flagged for a closer look

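Among 36 groups of 5 or 6 libraries that were checked (the 7 members, 6 related genes and 5 marker sums in each group), 3 had a library that lay far outside the others, where chance flags about 1 in 20, or 1.8. LPL was at 5.39 CPM in MCT replicate 5, and the next MCT library was at 1.297 CPM. ABCA1 reached 88.0 CPM in SEFA-6179 replicate 1, and the next SEFA-6179 library was at 64.2 CPM. ABCG5 reached 70.1 CPM in SEFA-6179 replicate 3, and the next SEFA-6179 library was at 36.4 CPM.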

How the results depend on the processing

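Over 20 alternatives the LIPG log2 fold change kept its direction, from 1.43 to 1.88 when 1 library was left out, and the call held in 8. It was lost with no low-count filter (1.69, adjusted p = 0.0511), under the replicate block (1.51, adjusted p = 0.0589), with the EIF1AY covariate (1.71) and without SEFA-6179 replicate 4 and MCT replicate 5 (1.68), and in each of these 4 the count of members past the threshold was 0. The cause was not tested. Leaving out 1 library gave 0 to 1 members, 0 to 53 of all tested genes and 0 related genes. All tested genes past the threshold were 30, but 276 by DESeq2, 62 by limma with library quality weights, 8 under the replicate block, 6 with the EIF1AY covariate and 1 without SEFA-6179 replicate 4 and MCT replicate 5. Related genes past the threshold were 1 by DESeq2.

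Signs turned only for members near 0, none past the threshold. LIPC was -0.097 by limma with library quality weights, -0.086 under the replicate block, -0.0087 with the EIF1AY covariate, -0.011 without SEFA-6179 replicate 4 and MCT replicate 5, and -0.23 to 0.16 with 1 library left out. LIPA was -0.038 under the replicate block and -0.038 to 0.17 with 1 or 2 libraries left out. PLTP was 0.027 without SEFA-6179 replicate 4 and MCT replicate 5, and -0.14 to 0.060 with 1 library left out. SCARB1 was -0.11 to 0.098 with 1 library left out. LPL could not be fitted with a mean count of at least 50. Replicate numbers were not taken as pairs: same-numbered libraries had correlated deviations of -0.15 to 0.20, and 1 of 5 SEFA-6179 libraries correlated best with its own number. At 1 to 96 reads per library, LPL is limited by depth.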
